A study of Mus musculus with 6 samples.

Results

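The 43 genes described here encode the proteins that copy DNA and supply its building blocks. They were chosen by name, with earlier results of these data known. They fall into origin licensing (5 genes), the MCM2-7 helicase (6), its activators (6) and DNA polymerase alpha-primase (4). The others are DNA polymerases delta and epsilon (5), the sliding clamp and its loader (7), Okazaki fragment maturation with single-strand binding (5) and nucleotide supply (5). All 43 were found among the 55401 genes of the deposited table, and all 43 passed the filter on low counts. RNA had been sequenced from mouse macrophages raised from bone marrow with the growth factor M-CSF. There were 3 libraries with the genotype Lamtor5 knockdown and 3 with the genotype WT, all of them M-CSF induced. The Lamtor5 protein (HBXIP) belongs to Ragulator, the complex that anchors mTORC1 signalling at the lysosome. LysM appears in the series description beside the mutants; it is the lysozyme promoter commonly used to drive Cre in myeloid cells. The labels used here give no age or strain and do not say whether libraries came from separate animals, so p-values measure the spread between libraries, which may be technical.

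Before S phase, the origin recognition complex, CDC6 and CDT1 load the ring-shaped MCM2-7 helicase onto origins. CDC45 and GINS then turn the ring into a moving helicase, primase starts each strand, and polymerases delta and epsilon extend it while tethered to the clamp PCNA. Ribonucleotide reductase, thymidylate synthase and thymidine kinase make the deoxynucleotides. Most of these genes are E2F targets, transcribed as cells pass from G1 into S phase, and bone marrow progenitors divide under M-CSF before they mature into macrophages.

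The promoters of 5 members are shown because they bear on what the group shares beyond its function. Promoter sequences came from RefSeq (GRCm38.p6), where 35 of the 43 members had an entry; Gins1, Gins2, Gins4, Gmnn, Mcm4, Pole, Prim2 and Rfc2 had none. Each window ran from 250 bases before to 50 bases after the start, and both strands were searched for the E2F-type letters TTTCCCGC, TTTGGCGC and TTTCGCGC. At least 1 of the 3 was present in 15 of the 35 members (42.9%), against 2.12% of all 27025 genes with a promoter entry and 3.82% of the 11818 whose symbol was among the genes tested. CCAAT, in which the factor NF-Y binds, was present in 22 members (62.9%), against 41.1% of all genes. TTTGAA, the core letters of the CHR element of cell cycle promoters, was present in 5 members (14.3%), against 20.2% of all genes and 15.2% of those tested. These letters can overlap each other, and a match is a description, not a site of binding. Capitals mark E2F-type letters and CCAAT on either strand. Each sequence ends just before the RefSeq start except that of Rrm2, which ends 15 bases before it. For Orc1 the deposited table puts the gene start earlier, at 108579423. The end of its sequence, with its E2F-type match 27 to 20 bases before the RefSeq start, thus lies inside the gene as tabled. Mcm5 and Mcm6 are shown as partners in a ring with unlike estimates (log2 fold change -2.55 and -1.21), a difference that was not tested. Orc1 and Pola1 are shown as licensing and primase genes, and Rrm2 as a member with a large decrease and no E2F-type match.
Mcm5, chr8:75109339-75109508, plus strand: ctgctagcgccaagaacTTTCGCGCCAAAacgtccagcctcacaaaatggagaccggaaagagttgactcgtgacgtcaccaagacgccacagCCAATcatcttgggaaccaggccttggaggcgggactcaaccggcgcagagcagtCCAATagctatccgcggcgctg
Mcm6, chr1:128359706-128359835, minus strand: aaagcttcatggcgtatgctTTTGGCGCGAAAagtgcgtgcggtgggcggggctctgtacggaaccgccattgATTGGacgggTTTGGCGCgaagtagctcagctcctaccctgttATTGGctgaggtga
Orc1, chr4:108579339-108579453, plus strand: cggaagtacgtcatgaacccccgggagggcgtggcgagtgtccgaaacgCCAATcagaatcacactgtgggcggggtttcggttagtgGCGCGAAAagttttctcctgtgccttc
Pola1, chrX:93632156-93632305, minus strand: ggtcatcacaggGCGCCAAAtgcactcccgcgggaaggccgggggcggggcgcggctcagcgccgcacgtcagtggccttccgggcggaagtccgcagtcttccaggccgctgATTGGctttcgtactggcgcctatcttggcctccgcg
Rrm2, chr12:24708124-24708239, plus strand: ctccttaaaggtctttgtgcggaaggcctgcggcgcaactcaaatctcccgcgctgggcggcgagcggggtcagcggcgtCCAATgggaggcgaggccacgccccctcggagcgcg
Mcm5 held 2 overlapping E2F-type matches, from 153 to 142 bases before its start. Mcm6 held 3, of which 2 overlapped between 110 and 99 bases before the start and the other lay 47 to 40 bases before it. The 15 members with these letters had a median log2 fold change of -1.27 (7 fell). The 20 matched members without them had a median of -1.17 (9 fell), side by side and not tested. Of all genes tested, 6.46% fell (edgeR, adjusted p under 0.05).

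The targeted gene and the libraries were looked at before the members. Lamtor5 had 25.5, 27.1 and 24.8 FPKM in knockdown replicates 1 to 3 and 55.9, 54.5 and 56.2 FPKM in WT replicates 1 to 3 (log2 fold change -1.06, SE 0.078, adjusted p = 0.00963, edgeR; exact permutation test over libraries, two-sided, p = 0.1, which 3 against 3 cannot go below). After trimming, 25.7 to 27.8 M read pairs per library were kept. Over the 6 libraries the members summed to between 2000 (Orc1) and 94811 (Pcna) estimated counts. Lyz2, the LysM locus, had 11400, 10600 and 73.6 FPKM in knockdown replicates 1 to 3 and 29400, 24700 and 22500 FPKM in WT replicates 1 to 3. All knockdown libraries were below all WT libraries, as in 21.3% of genes tested, and knockdown replicate 3 stood far apart. Among all genes tested, 6.46% fell and 4.87% rose (edgeR, adjusted p under 0.05), the shares to set beside the marker counts that follow. Of 8 macrophage markers, 5 fell and Cd68 rose, and their summed level was 1980 to 13200 FPKM in the knockdown against 24200 to 31400 FPKM in WT. Lyz2, which did not pass (adjusted p = 0.408), made up most of that sum except in knockdown replicate 3. The 7 others summed to 1834, 1743 and 1908 FPKM in the knockdown and 1991, 1844 and 1781 FPKM in WT, which overlapped, with Cd68 as the largest term. Of 11 markers of myeloid progenitors and granulocyte precursors, Kit and Mpo rose and none fell (summed level 21.2 to 31.4 against 12.7 to 13.4 FPKM). Mast cell, basophil and eosinophil markers were also higher in sum (6.56 to 15.3 against 2.17 to 4.54 FPKM, 2 of 8 rose), as were erythroid markers (2.77 to 15.5 against 1.44 to 2.34 FPKM, 1 of 5 tested rose), of which Alas2 was at 0 counts in every library. Lymphoid markers summed to 1.54 to 5.39 against 5.51 to 8.26 FPKM and stromal markers to 3.55 to 8.39 against 4.12 to 8.59 FPKM, with none called. The part of these markers in the results below was not tested.

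Each of the 8 sub-complexes held genes that fell in the knockdown, and nucleotide supply had the lowest median. Of the 43 members, 21 fell and 1, Rfc2, rose at a Benjamini-Hochberg adjusted p under 0.05, in edgeR's quasi-likelihood test over 18164 genes. Among all genes tested, 6.46% were called lower and 4.87% higher. The members' median log2 fold change was -1.21, against 0.02 over all genes tested, and all but Rfc2 lay below 0. In 31 members every knockdown library was below every WT library in FPKM, which held for 21.3% of genes tested. In bulk RNA, fewer cells in S phase and less of these RNAs per cell cannot be told apart.

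**Figure D1:**
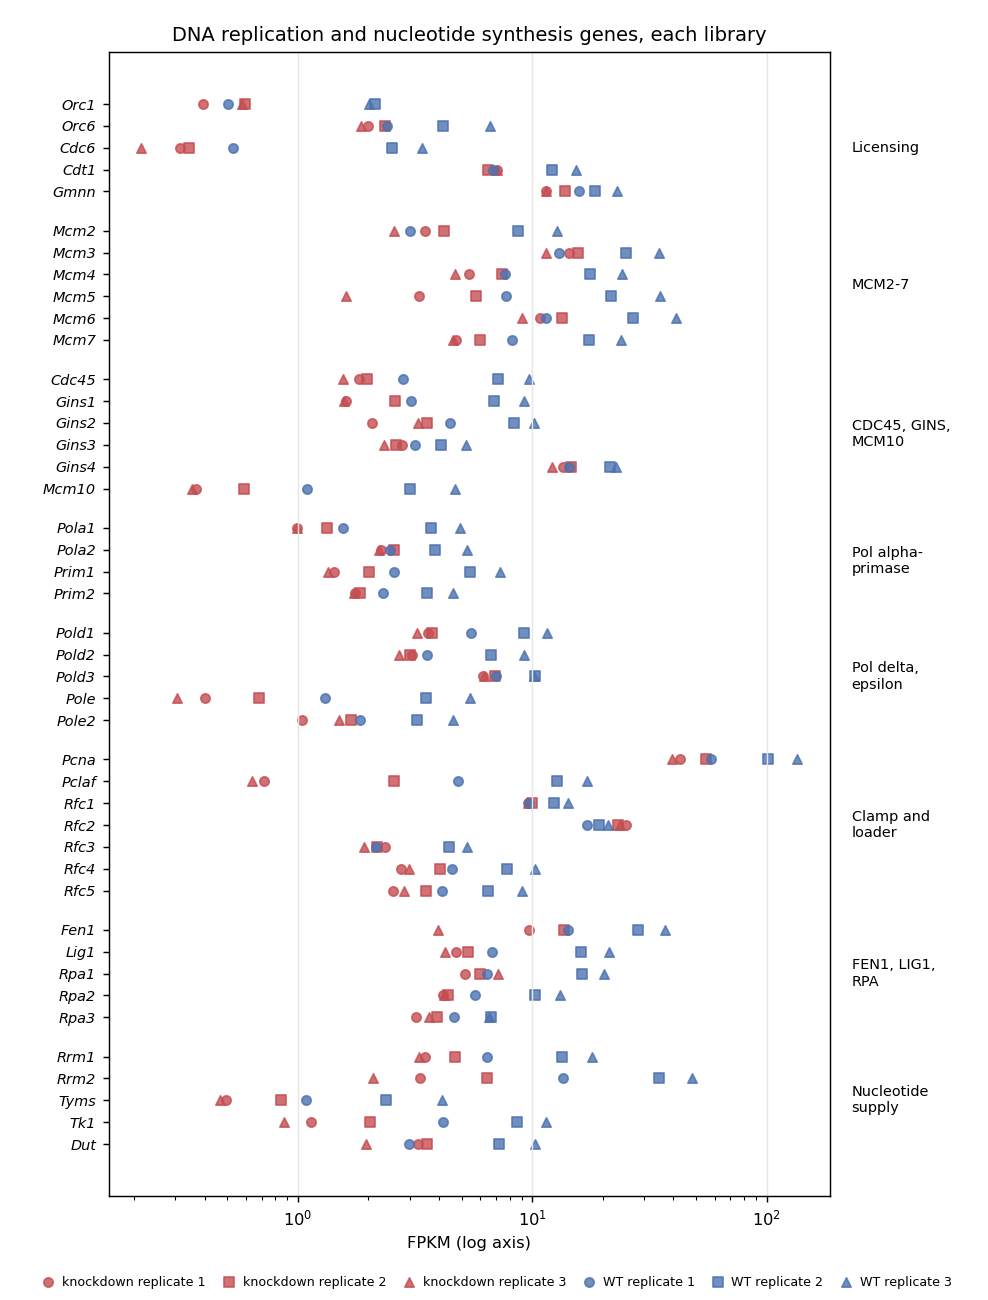
Deposited FPKM (log axis) of the 43 members in each of the 6 libraries, grouped by sub-complex; red symbols are knockdown libraries and blue symbols WT libraries, with the replicate number given by the shape. WT replicate 1 (blue circle) is the lowest WT library in all 43 members and lies next to or among the knockdown libraries in many of them.

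The WT libraries were far apart in these genes. WT replicate 1 was the lowest WT library in all 43 members, against 43.6% of genes tested, and WT replicate 3 the highest in 40 (93.0%), against 39.2%. This order was not confined to the members. It held at both ends in all 21 mitosis genes described below. The counts were 30 and 29 of the 34 further replication genes, and 25 and 26 of the 32 other nucleotide genes. The knockdown libraries were ordered too, with replicate 2 highest in 37 members, against 7836 of the 18164 genes tested. In the members, the highest WT value was a median of 2.74 times the lowest, against 1.39 times within the knockdown and 1.37 times within WT over all genes tested. Relative to each gene's WT mean, the median member stood at 36.8%, 46.4% and 37.4% in knockdown replicates 1 to 3, at 53.7% in WT replicate 1, and at 106% and 142% in WT replicates 2 and 3. In 12 members (27.9%) WT replicate 1 was not above all knockdown libraries, which held for 67.0% of genes tested. Without WT replicate 1, edgeR called 41 of 43 members lower (background 7.29%), and their median was -1.53; the exceptions were Fen1 (-1.79, adjusted p = 0.0598) and Rfc2. As that library was the lowest WT library in all 43 members, leaving it out raises each WT mean. The larger count and lower median are therefore no independent check. With all libraries, DESeq2 called 39 lower (background 11.8%). Conversely, edgeR called 0 members lower without knockdown replicate 1 (background 0.861%), knockdown replicate 3 (2.17%), WT replicate 2 (0.0%) or WT replicate 3 (1.9%), where 29, 31, 31 and 28 members were lower at an unadjusted p under 0.05. At that unadjusted p, 4940 of 19052, 4549 of 18831, 4065 of 18979 and 4435 of 19015 genes tested passed in either direction. Without knockdown replicate 2, 4 members were called lower (background 3.29%). All 43 members kept the sign of their change in each of the 14 other settings tried.

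**Figure D2:**
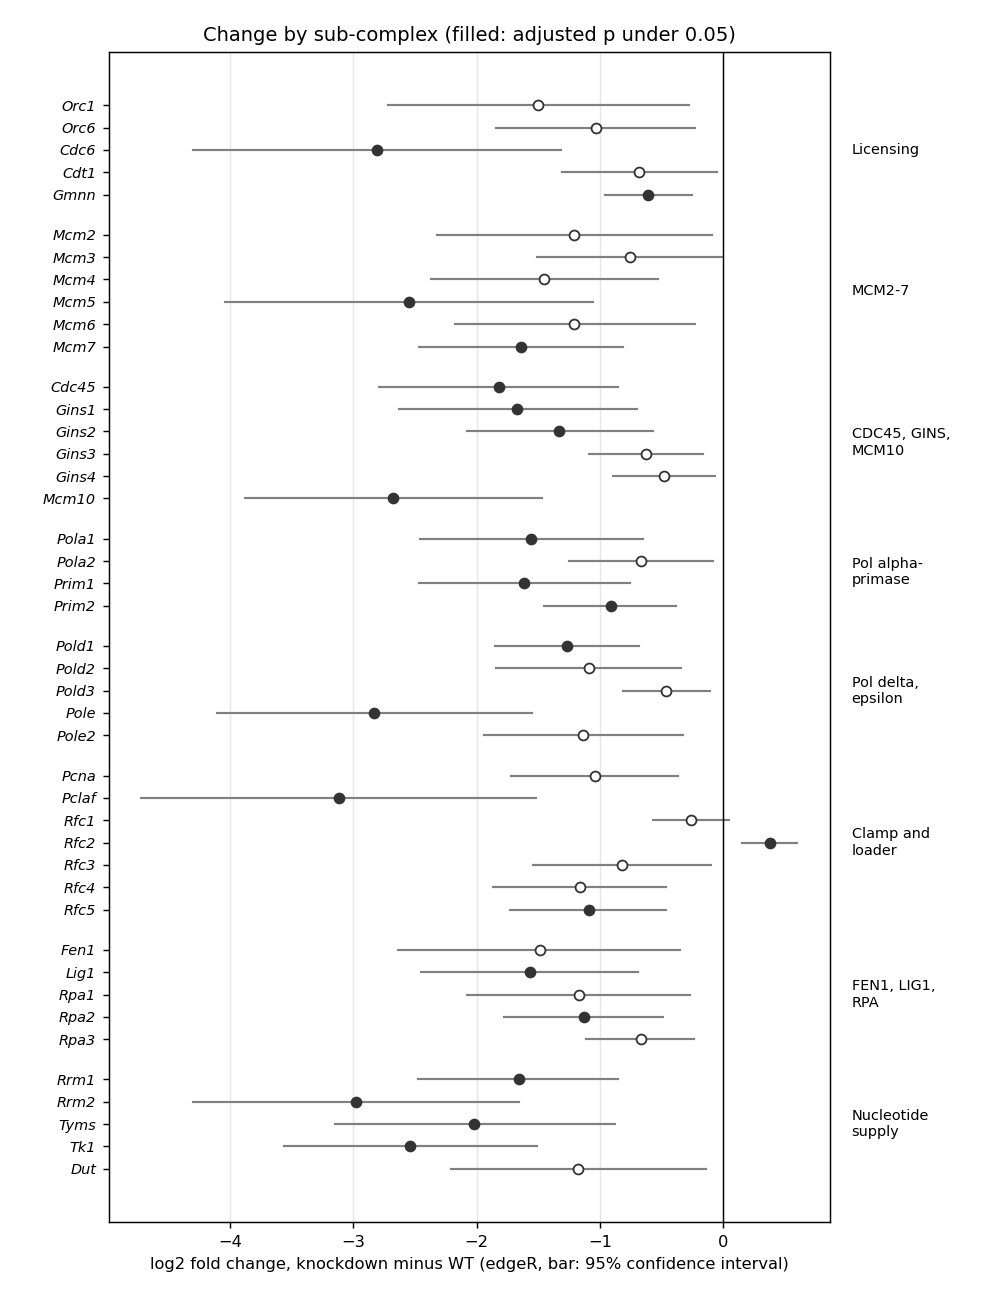
Log2 fold change of each member, knockdown minus WT, from edgeR, with its 95% confidence interval; filled points had an adjusted p under 0.05. The estimates run from -3.12 (Pclaf) to 0.38 (Rfc2), and the intervals of Rfc1 alone among the members include 0.

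Among the licensing genes, Cdc6 and Gmnn fell and Orc1, Orc6 and Cdt1 did not pass the test. Cdc6, the ATPase that recruits MCM2-7 to origins (ENSMUSG00000017499, GRCm38 chromosome 11, 98907801 to 98923940, plus strand), had 0.314, 0.342 and 0.215 FPKM in knockdown replicates 1 to 3 and 0.529, 2.51 and 3.39 FPKM in WT replicates 1 to 3. The groups did not overlap, and WT replicate 1 was much closer to the knockdown libraries than to the other WT libraries (log2 fold change -2.81, SE 0.63, adjusted p = 0.0362). Gmnn encodes geminin, the inhibitor that keeps CDT1 from reloading origins. It fell from 19.2 ± 3.66 to 12.2 ± 1.41 FPKM (mean ± SD, n = 3; -0.61, adjusted p = 0.0464), a smaller change than that of Cdc6 and without overlap. Orc1, the cell cycle-regulated subunit of the origin recognition complex, had 0.395, 0.596 and 0.58 FPKM in the knockdown and 0.503, 2.14 and 2.01 FPKM in WT. WT replicate 1 lay within the knockdown range, and the log2 fold change of -1.50 had a 95% interval from -2.72 to -0.28 (adjusted p = 0.104). For Cdt1 the interval was -1.31 to -0.05 and for Orc6 -1.84 to -0.23.

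Orc2 to Orc5, the other origin recognition complex genes shown, are not among the 43 members, and none passed the test. Orc3 had 6.17, 6.61 and 5.92 FPKM in the knockdown and 6.0, 5.99 and 6.38 FPKM in WT. Its log2 fold change was 0.07 with a 95% interval from -0.11 to 0.26. The intervals of Orc2 (-0.46 to 0.28) and Orc4 (-0.29 to 0.14) also included 0, and that of Orc5 was -0.50 to -0.04 (adjusted p = 0.112). Within each library, the ratio of Orc1 to Orc3 was 0.0639, 0.0902 and 0.0981 in the knockdown and 0.0838, 0.358 and 0.315 in WT, so the groups overlapped (exact permutation test on the log2 ratio, two-sided, p = 0.3). This ratio and 4 others below were picked after their values were seen, so their p-values are descriptions and not tests of a difference. Adjusted over the 5, the p of this ratio stayed 0.3.

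All 6 genes of the MCM2-7 ring lay below 0, and Mcm5 and Mcm7 fell. Mcm5 (ENSMUSG00000005410, chromosome 8, 75109569 to 75128439, plus strand) had 3.30, 5.77 and 1.6 FPKM in the knockdown and 7.76, 21.7 and 35.2 FPKM in WT (-2.55, SE 0.63, adjusted p = 0.0469). The groups did not overlap, and WT replicate 1 and knockdown replicate 2 were their nearest libraries. Mcm7 fell from 16.5 ± 7.90 to 5.10 ± 0.762 FPKM (-1.64, adjusted p = 0.0321). For Mcm2, Mcm3 and Mcm6, WT replicate 1 was inside the range of the knockdown libraries. Mcm3 had 14.3, 15.6 and 11.5 FPKM in the knockdown and 13.0, 25.2 and 34.6 FPKM in WT (-0.76, 95% interval -1.51 to -0.01, adjusted p = 0.161). In Mcm4 (-1.45, adjusted p = 0.0578) the groups did not overlap, but by a small margin, with WT replicate 1 at 7.65 FPKM and knockdown replicate 2 at 7.42 FPKM. The MCM proteins assemble in equal copies, and a pair of their RNAs was also compared as a ratio within each library. Mcm5 (-2.55) and Mcm3 (-0.76) had the lowest and the highest log2 fold change of the 6. The pair was picked after its values were seen, so its p-value cannot test whether the ring's genes changed unequally. The ratio of Mcm5 to Mcm3 was 0.231, 0.370 and 0.139 in the knockdown and 0.595, 0.862 and 1.02 in WT. The groups did not overlap in this ratio (two-sided exact permutation test, p = 0.1, the lowest possible; 0.125 adjusted over the 5 ratios).

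**Figure D3:**
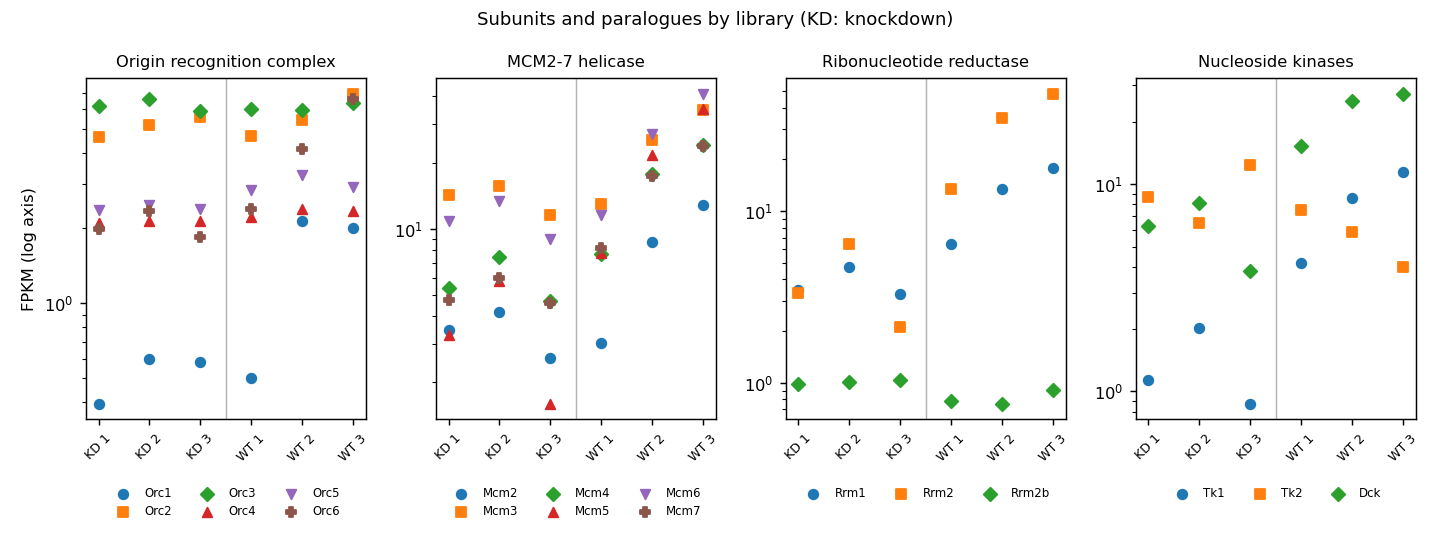
FPKM (log axis) by library for the 6 subunits of the origin recognition complex, the 6 MCM2-7 genes, the ribonucleotide reductase genes and 3 nucleoside kinase genes; knockdown libraries (KD) are left of the grey line and WT libraries right of it. Orc2 to Orc5 and Rrm2b vary little between libraries, whereas Orc1, Mcm5, Rrm2 and Tk1 span a wide range with WT replicates 2 and 3 at the top.

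Among the helicase activators, Cdc45, Gins1, Gins2 and Mcm10 fell and Gins3 and Gins4 did not pass. Mcm10, which helps to start the assembled helicase, had 0.368, 0.586 and 0.354 FPKM in the knockdown and 1.09, 3.01 and 4.67 FPKM in WT (-2.68, SE 0.51, adjusted p = 0.0237), with no overlap. Cdc45, the helicase cofactor, fell from 6.56 ± 3.49 to 1.78 ± 0.215 FPKM (-1.82, adjusted p = 0.0365). The 4 GINS subunits also form a complex of equal copies. Gins1 (-1.67) and Gins2 (-1.33) had lower estimates than Gins3 (-0.63, 95% interval -1.09 to -0.16) and Gins4 (-0.48, -0.89 to -0.07). Gins4 was also the most abundant of the group per length, at 19.5 ± 4.52 FPKM in WT and 13.5 ± 1.26 FPKM in the knockdown. WT replicate 1 (14.3 FPKM) lay within the knockdown range for Gins4.

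In DNA polymerase alpha-primase, which lays down the RNA-DNA primers, 3 of 4 genes fell. The catalytic subunit gene Pola1 had 0.993, 1.33 and 0.990 FPKM in the knockdown and 1.55, 3.68 and 4.90 FPKM in WT (-1.56, SE 0.38, adjusted p = 0.0463). Prim1, the catalytic primase subunit, fell by 1.62 and its partner Prim2 fell by 0.91 on the log2 scale (adjusted p = 0.0362 and 0.0479). The groups did not overlap in these 3 genes. Pola2, the regulatory subunit, did not pass (-0.67, adjusted p = 0.124), with WT replicate 1 (2.47 FPKM) below knockdown replicate 2 (2.56 FPKM).

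Each of the replicative polymerases had 1 subunit gene that fell, the catalytic one. Pole, the leading-strand polymerase gene (ENSMUSG00000007080, chromosome 5, 110286306 to 110337474, plus strand), had 0.402, 0.683 and 0.306 FPKM in the knockdown and 1.30, 3.51 and 5.45 FPKM in WT. All knockdown libraries were below all WT libraries (-2.83, SE 0.54, adjusted p = 0.0238). Pold1, the lagging-strand polymerase gene, fell from 8.78 ± 3.09 to 3.51 ± 0.256 FPKM (-1.27, adjusted p = 0.0253). The accessory subunit genes Pole2 (-1.14), Pold2 (-1.09) and Pold3 (-0.46) did not pass, with adjusted p from 0.0706 to 0.0924, although their groups did not overlap either. Outside the members, none of the small subunit genes passed. The intervals of Pole4 (0.01, 95% interval -0.36 to 0.37) and Pold4 (-0.13, -0.44 to 0.18) included 0. Pole3 lay below 0 (-0.41, -0.79 to -0.02, adjusted p = 0.146), with 8.85, 8.62 and 8.46 FPKM in the knockdown and 9.18, 12.0 and 14.5 FPKM in WT, without overlap.

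The clamp and its loader held both the lowest estimate of all members and the gene that rose. Pclaf, a small protein that binds PCNA at forks (ENSMUSG00000040204, chromosome 9, 65890237 to 65903266, plus strand), had 0.719, 2.56 and 0.636 FPKM in the knockdown and 4.84, 12.8 and 17.2 FPKM in WT (-3.12, SE 0.67, adjusted p = 0.0331). Pcna itself, the clamp and the most abundant member, had 42.9, 55.4 and 39.4 FPKM in the knockdown and 57.7, 101 and 135 FPKM in WT. WT replicate 1 was just above knockdown replicate 2, and Pcna did not pass (-1.04, adjusted p = 0.0611). The ratio of Pclaf to Pcna was 0.0168, 0.0462 and 0.0161 in the knockdown and 0.0839, 0.127 and 0.128 in WT, without overlap (exact permutation test, two-sided, p = 0.1; 0.125 adjusted over the 5 ratios).

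Of the 5 genes of the clamp loader RFC, 1 fell and 1 rose. Rfc5 fell from 6.55 ± 2.43 to 2.96 ± 0.502 FPKM (-1.09, adjusted p = 0.0459), while Rfc4 (-1.16, adjusted p = 0.0508) and Rfc3 (-0.82, adjusted p = 0.124) did not pass. The large subunit gene Rfc1 had 9.74 ± 0.267 FPKM in the knockdown and 9.64, 12.4 and 14.2 FPKM in WT, where replicate 1 lay within the knockdown range (-0.26, 95% interval -0.57 to 0.05). Rfc2 (ENSMUSG00000023104, chromosome 5, 134581366 to 134601805, plus strand) had 25.2, 23.2 and 23.8 FPKM in the knockdown and 17.1, 19.3 and 21.1 FPKM in WT. All knockdown libraries were above all WT libraries, as in 16.3% of genes tested (0.38, SE 0.095, adjusted p = 0.0487). The call was lost without any single library (adjusted p 0.0653 to 0.163). Rfc2 overlaps Lat2 on the other strand, which had 123151 estimated counts over the libraries against 74225 for Rfc2 and a log2 fold change of 0.42. Whether counting used strand is not given in the sources used here, so reads of this pair may not be told apart. The same limit holds for Rfc5, which overlaps Wsb2 (119405 estimated counts against 12216, log2 fold change 0.82). It also holds for Rfc4, which overlaps Eif4a2 (57433 against 4563, log2 fold change 0.16).

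Of the genes for Okazaki fragment maturation and single-strand binding, Lig1 and Rpa2 fell. Lig1, the ligase that seals the fragments, had 4.73, 5.30 and 4.26 FPKM in the knockdown and 6.76, 16.1 and 21.2 FPKM in WT (-1.57, SE 0.37, adjusted p = 0.0417). Fen1, the nuclease that trims their ends, ranged from 3.97 to 13.6 FPKM in the knockdown and from 14.2 to 36.8 FPKM in WT, and did not pass (-1.49, adjusted p = 0.0925). RPA coats single-stranded DNA as a complex of 3 subunits. Rpa2 fell from 9.71 ± 3.74 to 4.26 ± 0.118 FPKM (-1.13, adjusted p = 0.0427). Rpa1 (-1.17, adjusted p = 0.0928) and Rpa3 (-0.67, adjusted p = 0.0603) did not pass, and in Rpa1 knockdown replicate 3 (7.15 FPKM) was above WT replicate 1 (6.41 FPKM).

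Nucleotide supply had the lowest median of the 8 sub-complexes, -2.02 against -1.50 for the helicase activators and -1.33 to -1.03 for the others, a difference that was not tested. Rrm2, the small subunit of ribonucleotide reductase that is made in S phase (ENSMUSG00000020649, chromosome 12, 24708241 to 24714146, plus strand), had 3.32, 6.43 and 2.10 FPKM in the knockdown and 13.5, 34.7 and 48.2 FPKM in WT (-2.98, SE 0.56, adjusted p = 0.0229). The lowest WT library was above the highest knockdown library. Rrm1, the large subunit, fell from 12.5 ± 5.77 to 3.82 ± 0.760 FPKM (-1.66, adjusted p = 0.0291). Tk1, the cytosolic thymidine kinase of the salvage route, had 1.14, 2.03 and 0.872 FPKM in the knockdown and 4.18, 8.59 and 11.5 FPKM in WT (-2.54, SE 0.43), with the smallest adjusted p of the members, 0.0187. Tyms, which makes thymidylate by the de novo route, fell from 2.53 ± 1.54 to 0.602 ± 0.209 FPKM (-2.02, adjusted p = 0.0424). Dut, which removes dUTP, did not pass (-1.18, adjusted p = 0.126), and WT replicate 1 (2.99 FPKM) was below knockdown replicates 1 and 2.

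Of the counterparts of these enzymes outside the members, Rrm2b and Tk2 did not pass the test, whereas Dck and Samhd1, described below, fell. Rrm2b, the reductase subunit that serves resting cells, had 0.978, 1.01 and 1.04 FPKM in the knockdown and 0.783, 0.754 and 0.907 FPKM in WT. Its groups did not overlap and its log2 fold change was 0.36 (95% interval 0.05 to 0.66, adjusted p = 0.118). The ratio of Rrm2 to Rrm2b was 3.40, 6.34 and 2.02 in the knockdown and 17.3, 45.9 and 53.1 in WT. Tk2, the mitochondrial thymidine kinase, overlapped between the groups (0.72, 95% interval -0.02 to 1.47), and the ratio of Tk1 to Tk2 was 0.131, 0.310 and 0.0701 against 0.559, 1.46 and 2.88. Neither ratio overlapped (exact permutation test, two-sided, p = 0.1 for each; 0.125 adjusted over the 5 ratios).

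In the rest of nucleotide metabolism 4 of 32 genes fell and none rose, where 6.46% of all genes tested fell and 4.87% rose. Their median log2 fold change was -0.22. Dck, the deoxycytidine kinase, had 6.26, 8.10 and 3.79 FPKM in the knockdown and 15.3, 25.1 and 27.3 FPKM in WT (-1.85, SE 0.31, adjusted p = 0.0175). Samhd1, which breaks deoxynucleotides down, had 15.9, 17.1 and 14 FPKM in the knockdown and 25, 23.6 and 22.1 FPKM in WT (-0.54, adjusted p = 0.0196). Unlike the members, Samhd1 was not lowest in WT replicate 1. The mitochondrial kinase gene Cmpk2 (-1.83) and the CTP synthase gene Ctps (-1.0) were the other genes that fell.

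Among 34 further replication genes 11 fell and none rose, with a median of -0.56, where 6.46% of all genes tested fell and 4.87% rose. The 6 with the smallest p were Dna2, a nuclease of Okazaki fragments (-0.75), the histone chaperone gene Asf1b (-2.48), Dbf4, the activator of the CDC7 kinase (-0.92), the helicase gene Recql4 (-1.92), Ticrr, which helps to load CDC45 (-2.72), and the fork checkpoint adaptor Clspn (-2.57). Asf1b had 3.30, 5.65 and 2.99 FPKM in the knockdown and 12.0, 24.0 and 33.2 FPKM in WT, without overlap. The table's own KEGG annotation of DNA replication held 35 genes, of which 26 were members. Of the 9 others 1 fell and none rose, with a median of -0.05.

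Mitosis genes, which also mark dividing cells, are set beside the members for comparison. Like the other lists, they were chosen with earlier results of these data known. All 21 mitosis genes fell (median -2.68 on the log2 scale), against 6.46% of all genes tested. In each of them every knockdown library was below every WT library, as in 21.3% of genes tested. The median mitosis gene was at 12.1%, 23.8% and 9.63% of its WT mean in the knockdown and at 62.2% in WT replicate 1. Those values were 36.8%, 46.4%, 37.4% and 53.7% for the members. Ccnb2, a mitotic cyclin gene, had 3.93, 6.98 and 3.11 FPKM in the knockdown and 24.7, 40.2 and 48.8 FPKM in WT (-2.98, adjusted p = 0.0113). Aurkb, Kif20a, Aurka, Bub1 and Cdc20, the others with the smallest p, had log2 fold changes from -2.99 to -2.32. The difference between the lists was not tested.

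**Figure D4:**
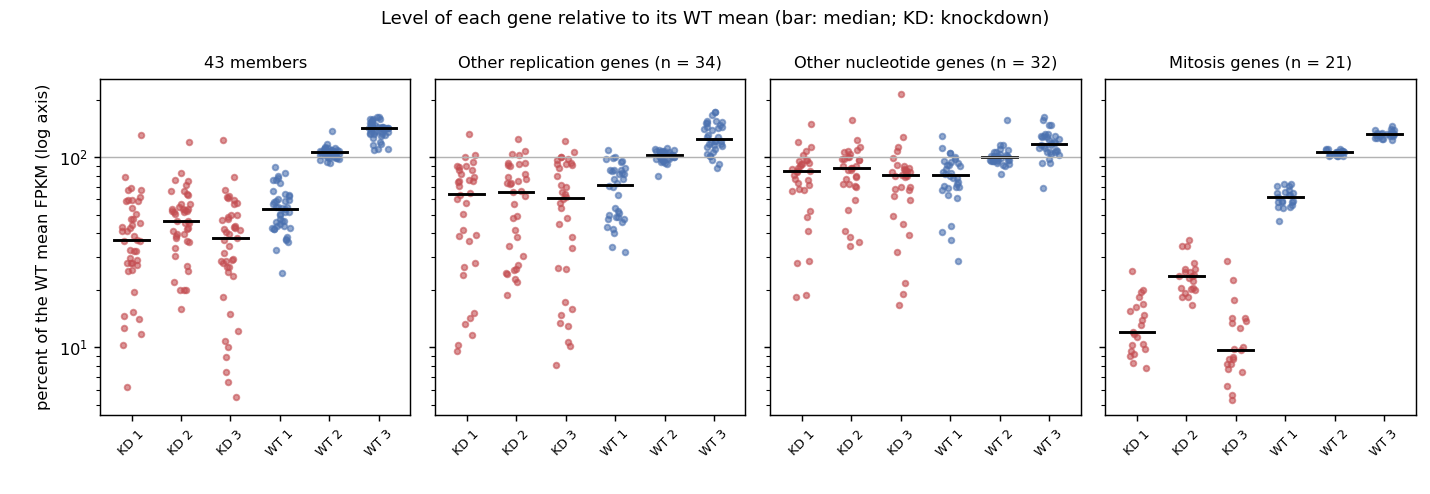
FPKM of each gene as a percent of its own WT mean (log axis) in each library, for the 43 members and 3 other gene lists; red points are knockdown libraries, blue points WT libraries, and black bars medians. In the members, WT replicate 1 (median 53.7%) lies close to the knockdown libraries (36.8% to 46.4%), and in mitosis genes it lies well above them (62.2% against 9.63% to 23.8%).

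The number of members called lower depended on the method as well as on the libraries. It was 21 with RLE scaling (background 6.63%), 22 with counts divided by 4 (8.93%), 5 with no count filter (2.47%) and 3 with the replicate number as a block (2.33%). On log2 FPKM values, limma called 9 with a pseudocount of 1 (10.7%), 12 with a pseudocount of 0.1 (10.8%) and 0 without a filter (1.45%), where 32 were lower at an unadjusted p under 0.05. Without a filter, 5877 of 28119 genes passed that unadjusted p in either direction.

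**Figure D5:**
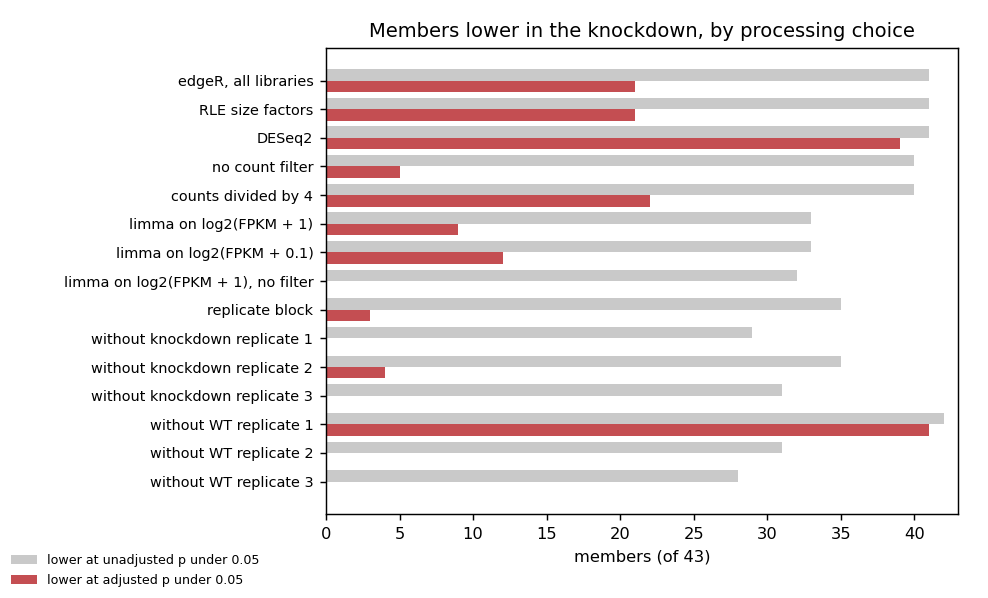
Number of the 43 members lower in the knockdown under each processing choice, at an adjusted p under 0.05 (red) and at an unadjusted p under 0.05 (grey). The adjusted count runs from 0 to 41 and the unadjusted count from 28 to 42. Over all genes, 4065 to 5989 passed that unadjusted p in either direction, depending on the setting.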

How the data were processed

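Per the file headers, the authors' table gives each gene an FPKM value and a count in every library. These deposited counts are whole, amount to 2.95 to 3.01 per read pair kept and pile up on 4 (16.4% of values from 1 to 30), and were therefore treated as estimated counts; no rounding was needed. Adapters were trimmed with cutadapt 1.9 (headers of the logs). The submitters' processing notes name GRCm38 (mm10); for aligner, counter and strand setting, nothing is given in the sources used here. Depth was 75.8 to 83.2 M estimated counts per library.

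Here, edgeR 4.0.16 (R 4.3.3) was run on the counts: filterByExpr (minimum count 10), TMM scaling, quasi-likelihood test, Benjamini-Hochberg adjustment over 18164 genes, threshold 0.05. SE was computed as |log2 fold change| over the root of F. FPKM values are the deposited ones. Ratios were tested with scipy 1.17.1. The code was tested on simulated data. DESeq2 1.42.0, limma 3.58.1 (pseudocount 1 or 0.1, genes averaging at least 1 FPKM), RLE scaling, no filter, counts divided by 4, the replicate block and each library left out were alternatives. The members and lists were chosen with earlier results of these data known. All members are named, as are Lamtor5, up to 6 called genes per further list with the smallest p, Orc2 to Orc5, Rrm2b, Samhd1 and Dck; Tk2, Pole3, Pole4, Pold4, Chtf8, Tymp and the markers named were picked with their values in view. On the other strand, 12 members overlap another gene with over 2% of their counts (Orc1, Orc6, Mcm7, Cdc45, Gins2, Pclaf, Rfc2, Rfc4, Rfc5, Fen1, Lig1, Tk1). For Orc6, Mcm7, Cdc45, Gins2, Rfc2, Rfc4 and Rfc5 an overlapping gene had more counts than the member (Vps35 129782 against 4400 for Orc6). With the strand setting unknown, reads of these pairs may not be told apart. Coordinates are those of the table; 36 of 43 members had the same ones in GENCODE M21.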

Additional observations from a re-analysis of the deposited data

How the results depend on the processing

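Signs were stable and calls were not. The members' median log2 fold change ranged from -1.53 to -0.86 when a library was left out, and it moved by less than the SD between libraries (0.44) in all settings. The count of members lower was 21, and 39 with DESeq2, 5 with no count filter, 9 and 12 with limma on log2(FPKM + 1) and log2(FPKM + 0.1), 0 with limma without a filter (32 at an unadjusted p under 0.05) and 3 with the replicate block. Leaving out a library gave 0 to 41. All genes called were 2058, and 3641 with DESeq2, 1205 with no count filter, 756 with limma without a filter and 728 with the block. They were 0 to 2334 with a library left out; the 0 is edgeR without WT replicate 2, with 4065 genes at an unadjusted p under 0.05. Other replication genes lower were 11, and 18, 7, 1 and 4 in those 4 settings, with 0 to 21 with a library left out. The 0 arose without knockdown replicate 1 or WT replicate 2 (17 at an unadjusted p under 0.05 in each). Other nucleotide genes lower were 4, and 8 with DESeq2, 2 with limma without a filter and 2 with the block, with 0 to 8 with a library left out. Here too the 0 arose without knockdown replicate 1 or WT replicate 2 (8 at an unadjusted p under 0.05 in each). Over all genes tested in those settings, 4940 of 19052 and 4065 of 18979 passed that unadjusted p in either direction. Lamtor5 was between -1.09 and -1.04 with a library left out, and passed except without WT replicate 2 (adjusted p = 0.0616). The mitosis count was 21 in all settings with every library except limma without a filter (17), and 0 to 21 with a library left out; the 0 arose without WT replicate 2 (21 at an unadjusted p under 0.05). The causes were not tested.

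Replicate numbers did not pair the libraries: over 18164 genes, deviations of same-numbered libraries from their group means correlated at 0.05, 0.04 and -0.01, and knockdown replicate 3 correlated best with another number. The count under the replicate block therefore rests on a shared number only. Orc1 had the fewest estimated counts of the members, 2000 in all. Its log2 fold change was -1.50 (SE 0.51), and -1.48 (SE 0.52) with counts divided by 4. Without WT replicate 1 it was -1.92 (SE 0.23).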

Other observations

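A pair of genes from the further lists had libraries of the same genotype far apart. Chtf8, a subunit of an alternative clamp loader, was at 5.37 FPKM in knockdown replicate 2 and at 17.2 to 25.6 FPKM in the other 5 libraries. Tymp, the thymidine phosphorylase gene, was at 0.244 FPKM in knockdown replicate 1 and 0.379 FPKM in WT replicate 1, and at 1.5 to 2.09 FPKM in the other 4. Both were picked after their values were seen, and the cause was not tested.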
